A study of Homo sapiens with 22 samples.

Results

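Trypsins are serine proteases that cut proteins after lysine and arginine, best known from the pancreas. Here their genes were followed in Caco-2 cells, an epithelial line from a human colorectal adenocarcinoma. The data below describe 10 genes around this activity out of the 61487 genes of the count table. They are the trypsin genes PRSS1, PRSS2 and PRSS3, the membrane or secreted serine proteases PRSS8, PRSS23, TMPRSS2, TMPRSS4 and ST14, the inhibitor gene SPINT1 and the receptor gene F2RL1. The genes were chosen by name with their normalized read counts in the 4 conditions already known, so their levels, differences and adjusted p-values are a description of these samples, and their number past a threshold supports nothing. The conditions were Caco-2 cells whose medium was replaced at 10% by phosphate-buffered saline (PBS, n = 4), by faecal water of control mice (FWctl, n = 7), by faecal water of the same mice under the antibiotic cocktail (FWatb, n = 7), or by the cocktail itself (ATB, n = 4), which held neomycin at 1 g/L, vancomycin at 0.5 g/L and meropenem at 0.25 g/L. Cells grew for 48 h before a 48 h exposure. Faecal water is the supernatant of faeces homogenised in PBS and centrifuged, so material of mouse origin met cells of a single human line in the FW groups. FWctl replicate 1 was left out of all means and tests and is shown apart, which leaves 6 FWctl samples and 21 samples in all. The study's methods exclude a FWctl sample without naming it. Replicate 1 was taken for it because it had been set apart when the genes were chosen. Libraries also differed in the share of counts on ribosomal DNA repeats, which was under 0.5% in 8 libraries (low-rDNA) and above it in 14 (high-rDNA).

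In the duodenum, trypsinogens from the pancreas are switched on by enteropeptidase (encoded by TMPRSS15), and trypsin then activates the other pancreatic zymogens. Epithelial cells carry a second, membrane-bound set of trypsin-like proteases. Matriptase (ST14) and prostasin (PRSS8) activate each other at the lateral membrane, where the Kunitz inhibitor HAI-1 (SPINT1) keeps matriptase in check. TMPRSS2 and TMPRSS4 are transmembrane relatives known for cutting viral spike proteins, and PRSS23 is a secreted serine protease. PAR2, the product of F2RL1, is a G protein-coupled receptor that trypsin, matriptase and other proteases switch on by cutting its extracellular end.

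The trypsin genes are close copies, so their sequences decide how well reads can be told apart. The first 120 coding bases of the MANE Select transcripts (GENCODE release 44) are shown because they hold the signal peptide, the activation peptide and the start of the mature enzyme, with the 12 positions that are not the same in all 3 genes in capitals.
PRSS1: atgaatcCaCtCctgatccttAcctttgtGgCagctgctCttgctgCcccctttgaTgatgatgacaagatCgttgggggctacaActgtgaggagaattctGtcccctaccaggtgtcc
PRSS2: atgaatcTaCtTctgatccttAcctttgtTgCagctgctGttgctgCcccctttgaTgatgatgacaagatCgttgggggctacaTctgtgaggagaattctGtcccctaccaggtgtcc
PRSS3: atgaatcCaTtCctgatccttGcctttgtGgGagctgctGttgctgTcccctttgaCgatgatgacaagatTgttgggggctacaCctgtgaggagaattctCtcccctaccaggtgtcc
Over the whole coding sequence of 744 bases, PRSS1 and PRSS2 were identical at 92.9% of aligned positions, PRSS1 and PRSS3 at 91.5% and PRSS2 and PRSS3 at 93.3%. Of the windows of 150 bases in these transcripts, the read length of the study, 0 of 660 in PRSS1, 0 of 660 in PRSS2 and 0 of 659 in PRSS3 occurred unchanged in an annotated transcript of another of the 3 genes. At 100 bases the number was also 0 in each. At 50 bases it was 24 of 760 in PRSS1, 38 of 760 in PRSS2 and 14 of 759 in PRSS3. Any 150-base stretch of these transcripts therefore held at least 1 difference from the other trypsin genes, whereas a trimmed read could be shorter. How reads with more than 1 possible position were counted is not given in the sources used here, so the split between the trypsin genes is uncertain and their sum is given beside them.

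The table of RefSeq promoters used here held entries for 6 of the 10 genes and none for PRSS8, TMPRSS2, TMPRSS4 and ST14. The 250 bases before the annotated start of the trypsin genes are printed because PRSS1 and PRSS2 moved together in the data and PRSS3 much less. Capitals mark TATAAA and the E-box core CACCTG, each searched on both strands, so that the reverse complement of the E-box core is marked too. The stretches are chr7:142749222-142749471 for PRSS1, chr7:142770720-142770969 for PRSS2 and chr9:33795311-33795560 for PRSS3, all on the plus strand of GRCh38.p14.
PRSS1: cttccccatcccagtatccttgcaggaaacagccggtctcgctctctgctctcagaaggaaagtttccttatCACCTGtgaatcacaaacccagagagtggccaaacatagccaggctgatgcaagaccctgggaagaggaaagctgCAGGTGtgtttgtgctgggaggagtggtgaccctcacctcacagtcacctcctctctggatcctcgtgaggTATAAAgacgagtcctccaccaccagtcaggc
PRSS2: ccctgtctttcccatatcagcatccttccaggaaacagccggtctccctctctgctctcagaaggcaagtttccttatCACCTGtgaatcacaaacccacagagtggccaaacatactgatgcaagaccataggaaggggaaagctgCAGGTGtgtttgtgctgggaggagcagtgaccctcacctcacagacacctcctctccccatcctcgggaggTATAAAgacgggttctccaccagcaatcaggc
PRSS3: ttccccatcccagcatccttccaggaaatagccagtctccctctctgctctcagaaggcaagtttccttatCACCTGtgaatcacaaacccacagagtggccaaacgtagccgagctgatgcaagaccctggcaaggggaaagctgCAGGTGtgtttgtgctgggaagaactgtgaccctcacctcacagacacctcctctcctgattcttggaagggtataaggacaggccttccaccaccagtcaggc
These stretches were identical at 86.7% of aligned positions between PRSS1 and PRSS2, 88.0% between PRSS1 and PRSS3 and 85.2% between PRSS2 and PRSS3, against 43.4% for PRSS1 and PRSS23. All 3 trypsin stretches hold CACCTG on each strand. The motif was found on either strand in 17.5% of 35116 RefSeq promoters over the same length, and the share with it on both was not computed. PRSS1 and PRSS2 hold TATAAA from position -32 to -27 before the start, which 10.7% of all promoters hold somewhere in this length on either strand. The PRSS3 stretch reads tataag at the same positions, which the exact search for TATAAA does not count. The pattern TGANTCA, with any base at N, lies directly after the upstream CACCTG in all 3, where it reads tgaatca. It occurs in 6.57% of promoters. Among the other members, PRSS23, SPINT1 and F2RL1 each had CACCTG on 1 strand at 1 of their starts. The NF-kB motif, in 5.21% of promoters, was found in none of these windows. PRSS3 also has annotated starts farther upstream, and the table of reads per gene does not show which start was used.

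PRSS1 (ENSG00000204983, chr7:142749468-142753072, plus strand) encodes cationic trypsinogen and had the widest ratio of highest to lowest group mean of the 10 genes, 20.4. Under PBS its normalized read counts, scaled to the median library, were 33.5, 30.7, 38.5 and 43.5. Under FWctl they ran from 524 to 682 with a median of 609, under FWatb from 14.1 to 40.0 with a median of 29.4, and under ATB they were 29.3, 45.7, 36.9 and 56.1. Every FWctl sample stood above all samples of the other groups, which overlapped each other. PBS had a mean of 36.6 ± 5.64 (SD, n = 4) and FWctl of 606 ± 58.6 (SD, n = 6). The mean of FWatb was 29.7 ± 9.12 (SD, n = 7) and that of ATB 42.0 ± 11.5 (SD, n = 4). FWctl was 16.2-fold above PBS (log2 fold change 4.01, with a standard error, SE, of 0.15) and 20.1-fold above FWatb (log2 fold change of FWatb against FWctl -4.33, SE 0.13). FWatb and PBS differed by a log2 fold change of -0.31 (SE 0.19, adjusted p = 0.352, edgeR), and ATB and PBS by 0.15 (SE 0.20, adjusted p = 0.925, edgeR). The raw counts behind these values were 27 to 71 under PBS and 13 to 44 under FWatb, so counting error is part of the spread there.

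PRSS2 (ENSG00000275896, chr7:142760398-142774564, plus strand), which encodes anionic trypsinogen and lies beside PRSS1, had the same order of conditions at lower counts. Its normalized read counts were 13.6, 20.5, 17.3 and 15.9 under PBS, and 17.2, 21.1, 19.1 and 31.8 under ATB. They ran from 86.4 to 184 with a median of 140.3 under FWctl and from 2.93 to 14.2 with a median of 11.7 under FWatb. The FWctl samples again lay above all others without overlap. The mean was 141 ± 38.6 (SD, n = 6) under FWctl against 16.8 ± 2.87 (SD, n = 4) under PBS, an 8.49-fold difference (log2 fold change 3.09, SE 0.22). FWatb had a mean of 10.4 ± 4.12 (SD, n = 7), 13.8-fold below FWctl (log2 fold change -3.79, SE 0.21). Against PBS, FWatb differed by a log2 fold change of -0.70 (SE 0.30, adjusted p = 0.144, edgeR) and ATB by 0.43 (SE 0.28, adjusted p = 0.773, edgeR). Raw counts under FWatb were as low as 3.

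PRSS3 (ENSG00000010438, chr9:33750679-33799231, plus strand) encodes mesotrypsin, an inhibitor-resistant trypsin also made outside the pancreas, and was the trypsin gene with most reads in every library. Its normalized read counts were 525, 796, 827 and 725 under PBS, and 618, 836, 654 and 685 under ATB. They ran from 810 to 992 with a median of 910.2 under FWctl and from 600.5 to 821 with a median of 713 under FWatb. The ranges overlapped between FWctl and both PBS and FWatb. The mean was 908 ± 67.1 (SD, n = 6) under FWctl and 718 ± 136 (SD, n = 4) under PBS, a log2 fold change of 0.34 (SE 0.10, adjusted p = 0.00364, edgeR). Without PBS replicate 1, the lowest PBS sample, it was 0.18 (adjusted p = 0.125, edgeR), and within the low-rDNA libraries 0.22 (adjusted p = 0.0779, edgeR), neither past the threshold of 0.05. FWatb had a mean of 711 ± 77.8 (SD, n = 7) and lay below FWctl by a log2 fold change of -0.35 (SE 0.08, adjusted p = 0.000471, edgeR), lower in 6 of 6 pairs of samples with the same replicate number.

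The 3 trypsin genes together had 1654 ± 117 (SD, n = 6) normalized reads under FWctl, against 772 ± 139 (SD, n = 4) under PBS. The sum was 751 ± 83.5 (SD, n = 7) in FWatb and 762 ± 104 (SD, n = 4) in ATB. FWctl was 2.14-fold above PBS in this sum, a sum that does not depend on how counted reads were split between the genes. The makeup of the sum changed with the condition. PRSS3 held 91.8 to 94.0% of the trypsin reads under PBS, 93.3 to 96.8% under FWatb and 88.6 to 93.0% under ATB, but 51.5 to 60.1% in the 6 FWctl libraries. PRSS1 held 32.6 to 38.5% of them under FWctl and at most 7.26% in the other 3 groups. PRSS2 held 5.94 to 10.6% under FWctl and at most 4.11% elsewhere. Per kilobase of exon, PRSS1 took 26.7 to 31.8% of the trypsin signal under FWctl. The number of PRSS1 reads for each PRSS2 read lay between 3.54 and 6.45 under FWctl and was at most 2.73 under PBS. In FWatb it reached 13.7, in the library with 3 PRSS2 reads.

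**Figure D1:**
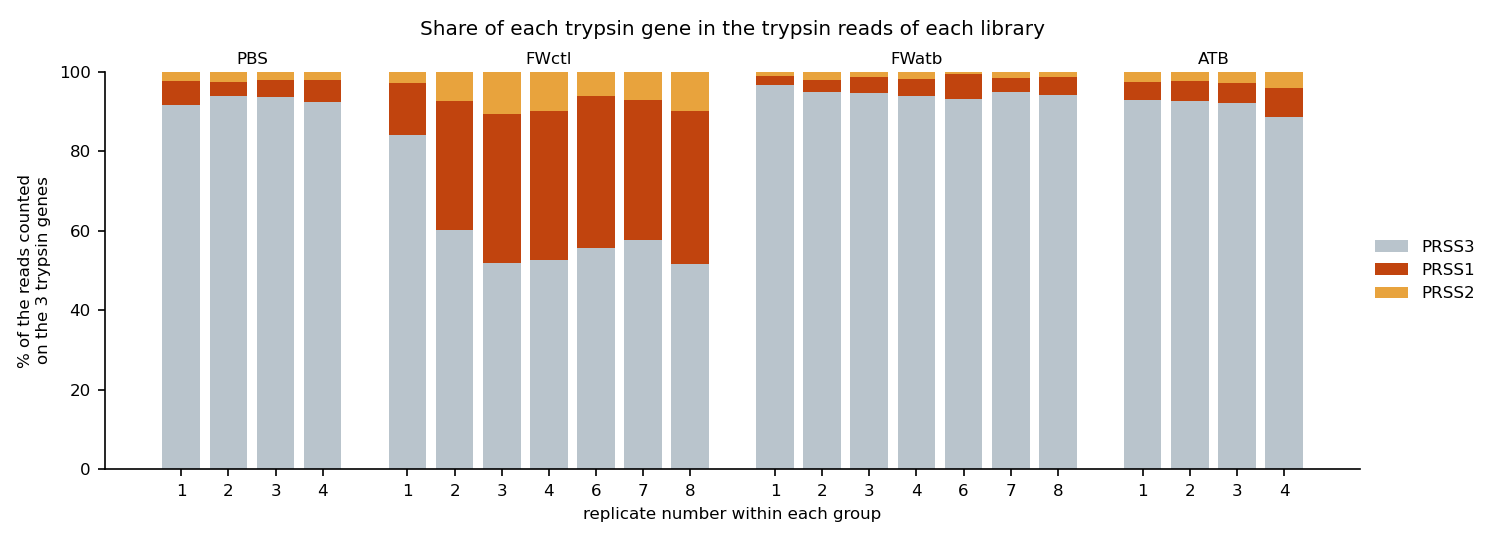
Stacked bars give the percentage of the reads counted on the 3 trypsin genes that fell on PRSS3, PRSS1 and PRSS2 (y axis, %), with a bar for each library in its group and its replicate number on the x axis. PRSS3 made up 51.5 to 60.1% in FWctl replicates 2 to 8 and 84.2% in FWctl replicate 1, which is shown apart in all other results.

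FWctl replicate 1 differed from the other FWctl libraries in most of these genes. It had 137 normalized PRSS1 reads, against 524 for the next lowest FWctl sample, and 28.2 PRSS2 reads, against 86.4. PRSS1 made up 13.1% of its trypsin reads. Of the 10 genes, 3 (PRSS3, SPINT1 and F2RL1) lay within the range of the other 6 FWctl samples. PRSS8 and TMPRSS2 lay within the range of PBS, and TMPRSS4, at 2089, lay within that of FWatb. Its F2RL1 count of 1432 was by contrast near the lowest FWctl value. With this library included, the log2 fold change of FWctl against PBS was 3.81 for PRSS1 and 2.86 for PRSS2.

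ST14 (ENSG00000149418, chr11:130159782-130210362, plus strand) encodes matriptase. Under PBS the libraries held 2696, 2786, 2992 and 2903 normalized reads, and under ATB 2991, 3040, 2715 and 2898. They ran from 1560 to 2076 with a median of 1915 under FWctl and from 2711 to 3492 with a median of 3117 under FWatb. The FWctl samples lay below all others, and the other groups overlapped. FWctl was 1.54-fold below PBS (log2 fold change -0.62, SE 0.08) and 1.67-fold below FWatb (log2 fold change of FWatb against FWctl 0.74, SE 0.07). FWatb against PBS gave 0.12 (SE 0.07, adjusted p = 0.354, edgeR).

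PRSS8 (ENSG00000052344, chr16:31131433-31135727, minus strand), which encodes the matriptase partner prostasin, had overlapping samples in all groups. Its normalized read counts were 1510, 1921, 1716 and 1907 under PBS, and 1755, 2151, 1814 and 1950 under ATB. They ran from 1642 to 2030 with a median of 1870 under FWctl and from 1268 to 1850 with a median of 1498 under FWatb. FWctl against PBS gave a log2 fold change of 0.06 (SE 0.09, adjusted p = 0.615, edgeR), the only one of the 10 genes not past the threshold in that comparison. FWatb against FWctl gave -0.25 (SE 0.07, adjusted p = 0.00471, edgeR), lower in 6 of 6 pairs. The latter was -0.19 with all 22 samples (adjusted p = 0.0538, edgeR) and -0.14 with scaling by library size alone (adjusted p = 0.0885, edgeR), neither past the threshold.

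TMPRSS4 (ENSG00000137648, chr11:118077012-118121890, plus strand) had FWctl samples well apart from the rest. Under PBS its normalized read counts were 2155, 2302, 2224 and 2349, and under ATB 2337, 2338, 2270 and 2189. They ran from 1139 to 1313 with a median of 1233 under FWctl and from 1985 to 2220 with a median of 2149 under FWatb. All FWctl samples lay below every sample of the other groups. FWctl was 1.83-fold below PBS (log2 fold change -0.87, SE 0.06) and FWatb 1.71-fold above FWctl (log2 fold change 0.78, SE 0.06). FWatb and PBS differed by -0.09 (SE 0.06, adjusted p = 0.413, edgeR).

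TMPRSS2 (ENSG00000184012, chr21:41464300-41531116, minus strand) was also lowest under FWctl. Its normalized read counts were 469, 548, 577 and 568.4 under PBS, and 609, 553, 640.2 and 633 under ATB. They ran from 301 to 361 with a median of 344 under FWctl and from 519 to 617 with a median of 551 under FWatb, so the FWctl samples lay below all others. The log2 fold change was -0.68 for FWctl against PBS (SE 0.08), 0.73 for FWatb against FWctl (SE 0.07), 0.05 for FWatb against PBS (SE 0.07, adjusted p = 0.757, edgeR) and 0.18 for ATB against PBS (SE 0.08, adjusted p = 0.549, edgeR). Of its exon bases, 562 overlap MX1 on the other strand, which had a mean of 2.22 normalized reads or fewer in every group.

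PRSS23 (ENSG00000150687, chr11:86791059-86952910, plus strand) was the only protease of this set outside the trypsins with a log2 fold change above 1 between the FW groups. Under PBS the libraries held 1255, 1341, 1357 and 1478 normalized reads, and under ATB 1426, 1632, 1382 and 1496. They ran from 674 to 973 with a median of 734 under FWctl and from 1221 to 1928 with a median of 1635 under FWatb. All FWctl samples lay below the other groups. FWctl was 1.74-fold below PBS (log2 fold change -0.80, SE 0.09) and FWatb 2.07-fold above FWctl (log2 fold change 1.05, SE 0.08). FWatb was above PBS by 0.25 (SE 0.09, adjusted p = 0.0708, edgeR), which misses the threshold here and passes it with only these groups fitted (adjusted p = 0.0451, edgeR), with scaling by library size alone, without FWctl replicate 3 or without FWatb replicate 6. FZD4, the gene of a Wnt receptor on the other strand, shares 1399 of the 11444 exon bases of PRSS23. Whether reads were counted by strand is not given in the sources used here, so reads of the shared bases may not be told apart. FZD4 had a mean of 828 normalized reads under PBS, 364 under FWctl, 555 under FWatb and 934 under ATB, lowest under FWctl like PRSS23 but, unlike it, lower under FWatb than under PBS (log2 fold change -0.58, adjusted p = 5.24e-06, edgeR). Its part in the PRSS23 counts was not tested.

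SPINT1 (ENSG00000166145, chr15:40844018-40858207, plus strand) encodes HAI-1. PBS libraries held 1542, 1858, 1763 and 1981 normalized reads, and ATB libraries 1662, 2199, 1664 and 1857. They ran from 1262 to 1627 with a median of 1438 under FWctl and from 1475 to 1916 with a median of 1596 under FWatb. FWctl overlapped PBS and FWatb but lay below all ATB samples. FWctl was below PBS by a log2 fold change of -0.30 (SE 0.08, adjusted p = 0.00259, edgeR). Within the 4 FWctl and 2 PBS high-rDNA libraries it was -0.26 (adjusted p = 0.0549, edgeR), just over the threshold. FWatb was above FWctl by 0.19 (SE 0.07, adjusted p = 0.0324, edgeR), higher in 6 of 6 pairs. That value was 0.17 with the library set as a covariate (adjusted p = 0.0626, edgeR).

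F2RL1 (ENSG00000164251, chr5:76818933-76835315, plus strand) encodes PAR2. Its normalized read counts were 2254, 2566, 2538 and 2945 under PBS, and 2825, 3058, 3242 and 3142 under ATB. They ran from 1426 to 1874 with a median of 1511 under FWctl and from 1871 to 2464 with a median of 2136 under FWatb. FWctl lay below PBS without overlap, and its range met that of FWatb between 1871 and 1874. FWctl was 1.64-fold below PBS (log2 fold change -0.71, SE 0.08) and 1.38-fold below FWatb (log2 fold change of FWatb against FWctl 0.47, SE 0.07). F2RL1 was also the only one of the 10 genes past the threshold between FWatb and PBS, by a log2 fold change of -0.24 (SE 0.08, adjusted p = 0.0410, edgeR) with overlapping samples. This call was lost with all 22 samples (-0.25, adjusted p = 0.0805, edgeR), with scaling by library size alone (-0.17, adjusted p = 0.185, edgeR), in a fit of high-rDNA samples only (-0.15, adjusted p = 0.402, edgeR), with the library set as a covariate (-0.19, adjusted p = 0.189, edgeR), and without any of PBS replicates 2, 3 and 4 or FWatb replicates 1, 2, 3 and 8 (adjusted p from 0.0519 to 0.242, edgeR). ATB against PBS gave 0.25 (SE 0.09, adjusted p = 0.301, edgeR).

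**Figure D2:**
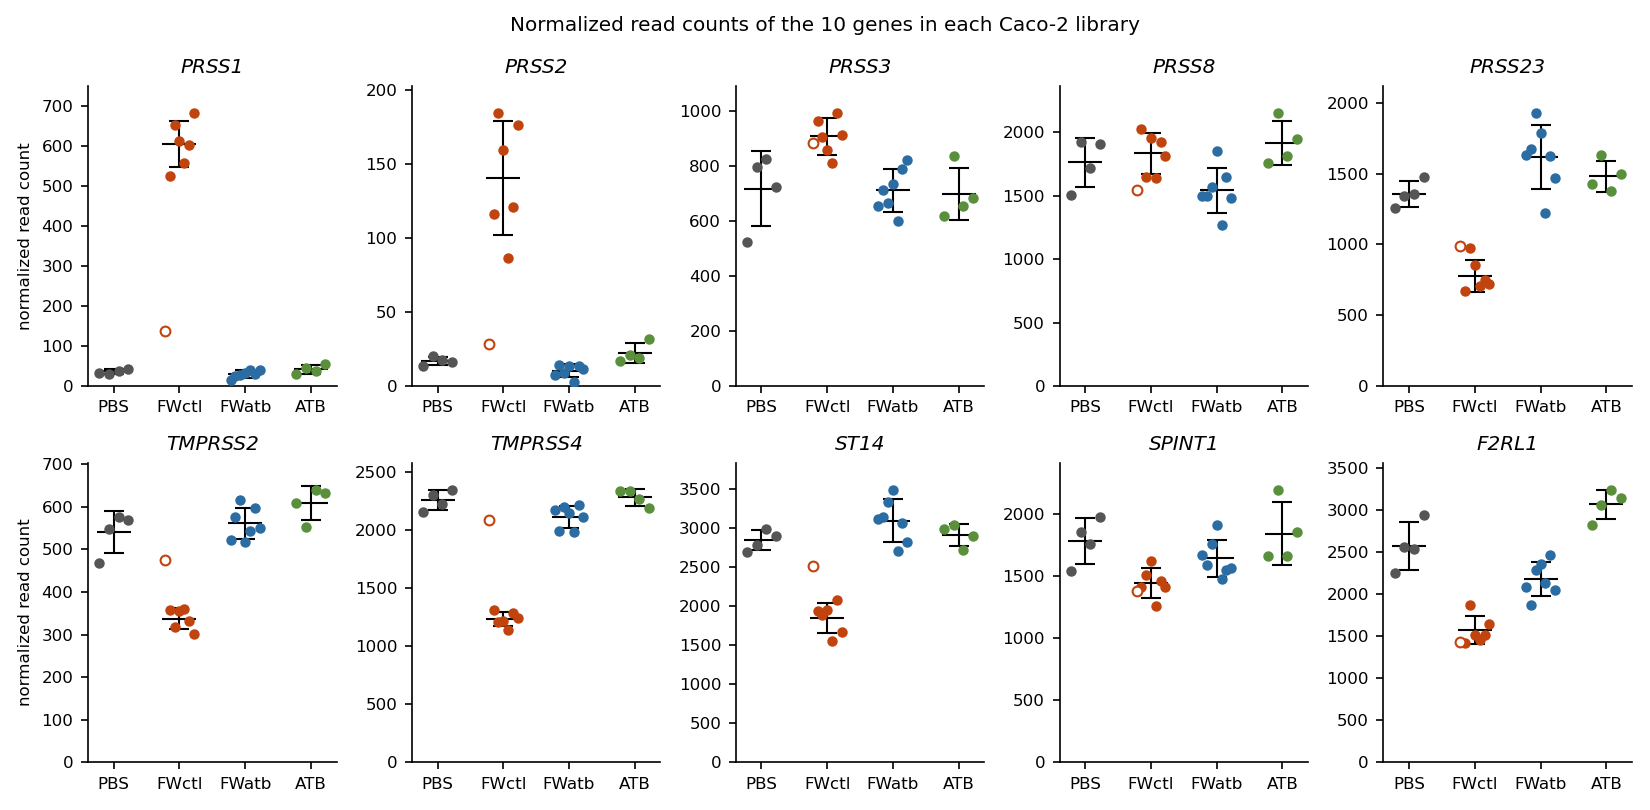
Each point is the normalized read count (y axis, linear from 0) of a gene in a library, by group on the x axis, with the mean and SD as black bars and FWctl replicate 1 as an open circle outside them. PRSS1 and PRSS2 stand above all other groups under FWctl, whereas PRSS23, TMPRSS2, TMPRSS4 and ST14 stand below them.

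Between genes, levels can be compared only per length, here per kilobase of annotated exon, which assumes that all exons are used. Under PBS the order on this scale was F2RL1 (879 ± 96.8, SD, n = 4), ST14 (691 ± 31.6), PRSS8 (593 ± 64.9), SPINT1 (504 ± 52.4) and PRSS3 (504 ± 95.3), then TMPRSS4 (227 ± 8.61), PRSS23 (119 ± 8.03) and TMPRSS2 (82.0 ± 7.50), and last PRSS1 (19.5 ± 3.01) and PRSS2 (13.4 ± 2.28). The samples of PRSS8, SPINT1 and PRSS3 overlapped, and those of all other neighbours in this order did not. Under FWctl PRSS3 (637 ± 47.1, SD, n = 6) and PRSS8 (617 ± 54.9) came first with overlapping samples, F2RL1 stood at 536 ± 56.7, and PRSS1, at 323 ± 31.3, stood above TMPRSS4 (124 ± 6.21).

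In the comparison of FWctl with PBS, which asks what faecal water of control mice does to these cells, 9 of the 10 genes passed an adjusted p of 0.05, 3 higher (PRSS1, PRSS2 and PRSS3) and 6 lower. Of all 20373 genes tested, 46.4% passed, 24.3% higher and 22.1% lower. The groups did not overlap for 7 of the 10 genes and for 33.7% of all genes tested. The median log2 fold change was -0.46 over the 10 genes and 0.02 over all genes tested. Within the low-rDNA libraries (2 PBS and 2 FWctl samples) the log2 fold change was 3.79 for PRSS1 and -0.91 for TMPRSS4. Within the high-rDNA libraries (2 PBS and 4 FWctl samples) it was 4.22 for PRSS1 and -0.89 for TMPRSS4. The labels name no batch.

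In the comparison of FWatb with FWctl, which asks how depletion of the microbiota changes the effect of faecal water, all 10 genes passed an adjusted p of 0.05 (6 higher and 4 lower under FWatb), as did 48.8% of all genes tested, 23.4% higher and 25.4% lower. With the absolute log2 fold change above 1 that the study's methods also ask, 3 passed, PRSS1 and PRSS2 lower and PRSS23 higher under FWatb, against 12.7% of all genes tested, 6.6% lower and 6.12% higher. The groups did not overlap for 6 of the 10 genes and for 25.5% of all genes. The median log2 fold change was 0.33 over the 10 genes and -0.01 over all genes. This comparison uses the same FWctl samples as that of FWctl with PBS, so the opposite signs of the 2 are not independent. Each of the 10 genes moved the same way in 6 of 6 pairs of FWctl and FWatb samples with the same number. For the 6 genes whose groups did not overlap, this holds under any pairing. The share of all genes that did so was not computed. With a constant of 1 added to both counts, the log2 ratio within pairs ran from -4.50 to -3.77 for PRSS1 and from -4.48 to -2.95 for PRSS2. For PRSS23 it ran from 0.79 to 1.31.

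**Figure D3:**
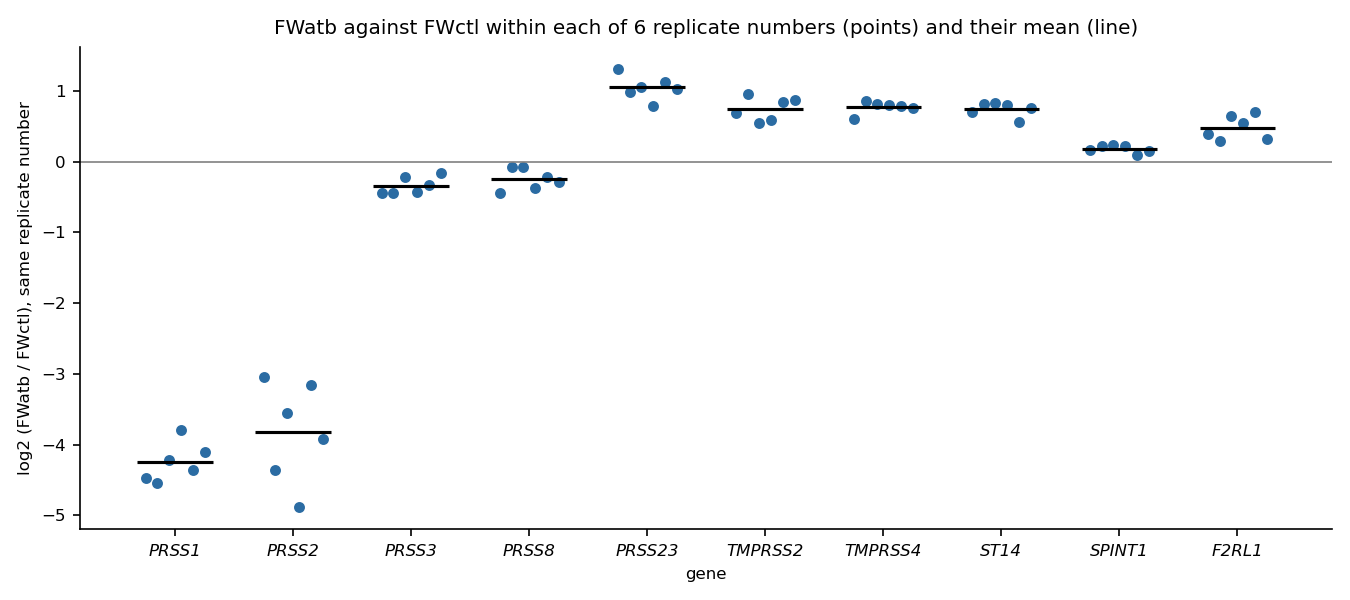
Points give the log2 ratio of the normalized read counts of FWatb and FWctl (y axis) for each of the 10 genes (x axis) in the 6 pairs of samples with the same replicate number, with their mean as a line. The points are drawn without a constant added to the counts. With the constant used in the text, the pairs lay between -4.50 and -3.77 for PRSS1 and between -4.48 and -2.95 for PRSS2. The drawn points of these genes lie lower. For PRSS23 the pairs lay between 0.79 and 1.31 with the constant.

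FWatb against PBS, which sets faecal water of antibiotic-treated mice against the vehicle, gave 1 gene of the 10 past the threshold (F2RL1, lower), against 9.99% of all genes tested, 6.04% higher and 3.95% lower. The groups overlapped for all 10 genes, and did not for 6.86% of all genes tested. ATB against PBS, the check of the antibiotics without faecal water, gave 0 of the 10 with edgeR and 0 with DESeq2, against 0.285% of all genes tested, 0.255% higher and 0.0295% lower. The groups overlapped for all 10, and did not for 5.58% of all genes. At an unadjusted p under 0.05 ATB against PBS gave 2 of the 10 (F2RL1 and TMPRSS2) and 8.3% of all genes, and FWatb against PBS gave 4 (F2RL1, PRSS2, PRSS8 and PRSS23) and 22.5% of all genes. The 10 log2 fold changes of ATB against PBS lay between -0.05 (PRSS3) and 0.43 (PRSS2).

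**Figure D4:**
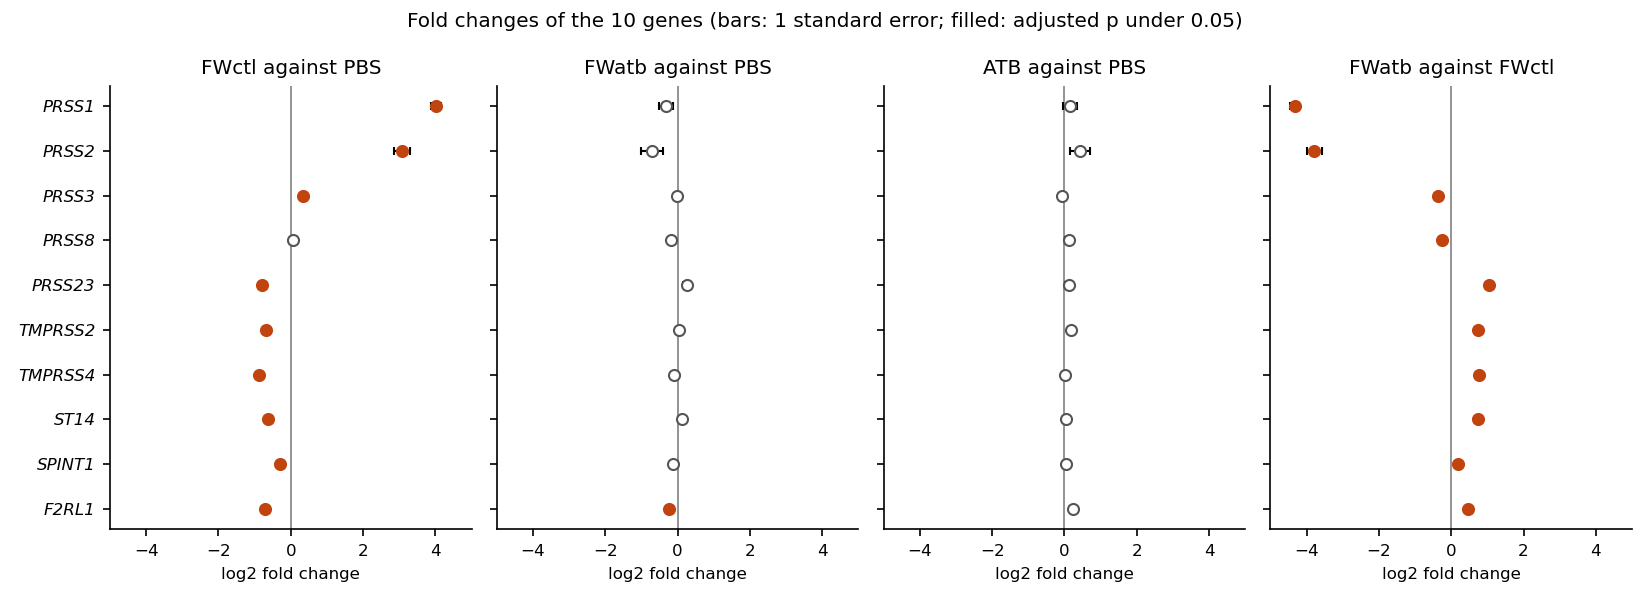
Log2 fold changes (x axis) of the 10 genes (y axis) in the 4 comparisons, with 1 standard error as a bar and filled points where the adjusted p is under 0.05. FWctl against PBS and FWatb against FWctl hold all changes past 0.5 on the log2 scale other than that of PRSS2 in FWatb against PBS, -0.70, which did not pass.

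Lists of 123 related genes were chosen with earlier results of these data known, of which 122 are in the table and 56 were tested. Among them 37 passed an adjusted p of 0.05 between FWctl and PBS (17 higher and 20 lower), where 46.4% of all genes tested passed. Between FWatb and PBS 14 passed (1 higher and 13 lower), against 9.99% of all genes, 6.04% higher and 3.95% lower. The number that passed was 2 within the high-rDNA libraries, 9 with all 22 samples and 8 without PBS replicate 3. Between FWatb and FWctl 35 passed, against 48.8% of all genes, and 13 with the fold change threshold, against 12.7%. ATB against PBS gave 0 with edgeR, 1 with DESeq2 (MET) and 9 at an unadjusted p under 0.05, where 8.3% of all genes had such a p. The median log2 fold change of the 56 genes was -0.25 for FWctl against PBS and -0.24 for FWatb against PBS.

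Of the trypsin copies and pseudogenes, PRSS3P1, whose annotation shares 40 bases with PRSS2 on the same strand, and PRSS3P3 had 0 reads in all 22 libraries, and PRSS3P2 was not analysed here. TMPRSS15, the gene of enteropeptidase, had at most 2 reads in a library. Of 7 other membrane serine proteases tested, 4 passed between FWctl and PBS, 2 in each direction, against 46.4% of all genes tested. TMPRSS3 rose from 17.7 ± 4.55 (SD, n = 4) normalized reads under PBS to 128 ± 24.3 (SD, n = 6) under FWctl (log2 fold change 2.84) and was 14.0 ± 3.70 (SD, n = 7) under FWatb. TMPRSS6, the matriptase-2 gene, fell from 155 ± 13.9 to 42.0 ± 8.63 (log2 fold change -1.85) and was 92.4 ± 14.1 under FWatb, also below PBS (log2 fold change -0.73, adjusted p = 2.08e-05, edgeR). HPN, the gene of hepsin, was 589.5 ± 50.2 under PBS, 401 ± 44.6 under FWctl and 458 ± 40.6 under FWatb, lower in both (log2 fold changes -0.56 and -0.37). TMPRSS13 did not pass between FWctl and PBS (-0.28, adjusted p = 0.241, edgeR) and was lower under FWatb than under PBS (-0.69, adjusted p = 0.0145, edgeR).

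Another list was labelled secreted trypsin-fold proteases, a loose label that not all of its genes meet. Of its 11 genes tested, 6 passed between FWctl and PBS, 3 in each direction, against 46.4% of all genes tested. HTRA1, a secreted protease of the extracellular matrix, fell from 319 ± 39.7 (SD, n = 4) to 65.2 ± 17.9 (SD, n = 6), a log2 fold change of -2.31, and was 299 ± 26.2 (SD, n = 7) under FWatb. PRSS35 fell from 570 ± 38.8 to 177 ± 34.3 (-1.68) and was 500.0 ± 44.3 under FWatb.

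Of 22 other serine protease inhibitors tested, 18 passed between FWctl and PBS, 9 in each direction, against 24.3% of all genes tested higher and 22.1% lower. The inhibitors with the widest rises and at least 20 normalized reads on average were AMBP, the bikunin precursor (from 12.9 ± 3.29 to 66.9 ± 11.3, log2 fold change 2.37), the neuroserpin gene SERPINI1 (from 52.5 ± 6.19 to 193 ± 17.1, 1.87) and SERPINA10 (from 377 ± 27.7 to 763 ± 49.8, 1.01). SERPINF2, the gene of the plasmin inhibitor, fell from 757 ± 55.5 to 164 ± 28.4 (-2.23). SERPINA1, the gene of alpha-1-antitrypsin, fell from 18467 ± 1869 (SD, n = 4) to 9926 ± 975 (SD, n = 6), a log2 fold change of -0.90, and was 15951 ± 741 (SD, n = 7) under FWatb. SPINK1, the pancreatic secretory trypsin inhibitor, rose from 1534 ± 275 to 1893 ± 161 (0.30, adjusted p = 0.0105, edgeR) and was lower under FWatb than under PBS (1140 ± 125, log2 fold change -0.43, adjusted p = 0.00173, edgeR). SPINT2, which encodes the relative HAI-2, fell by 0.26 (adjusted p = 0.00295, edgeR) like SPINT1. Between FWatb and PBS 9 inhibitors passed, 8 of them lower, against 3.95% of all genes tested lower and 6.04% higher. The exception was SERPINB9 (log2 fold change 0.35, adjusted p = 0.0116, edgeR). Over all the lists 14 genes passed in this comparison, and 2 within the high-rDNA libraries.

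Of 8 other receptors, G proteins and arrestins of protease-activated receptors tested, 5 were lower under FWctl than under PBS and 0 higher, against 22.1% of all genes tested lower and 24.3% higher. F2R, the gene of the thrombin receptor PAR1, fell from 410 ± 13.0 (SD, n = 4) to 177 ± 30.9 (SD, n = 6), a log2 fold change of -1.21, and was 339 ± 25.8 (SD, n = 7) under FWatb. The list of substrates of the membrane proteases also holds receptors of such substrates. Of its 8 genes tested, 3 were higher and 1 lower under FWctl, against 24.3% of all genes tested higher and 22.1% lower. SCNN1A, a subunit of the epithelial sodium channel, rose from 205 ± 11.8 to 347 ± 40.9 (log2 fold change 0.77), and MET, the receptor of the growth factor that matriptase and hepsin activate, rose from 2340 ± 92.6 to 3023 ± 200 (0.37). EPCAM (0.17, adjusted p = 0.0503, edgeR) and CDCP1 (0.01, adjusted p = 0.952, edgeR) did not pass.

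For each member, the gene with the most similar pattern over the 21 samples was sought among tested genes with at least 20 normalized reads on average. All members were left out of this search (12833 genes remained), so no member could be found as nearest to another. The measure was the mean absolute difference of log2 values centred on each gene. For SPINT1 it was SPINT2 (difference 0.07), the other HAI inhibitor gene. It was PDXK for ST14 (0.05), RTN4 for TMPRSS4 (0.07), ZDHHC20 for TMPRSS2 (0.08), CCNF for PRSS23 (0.10), TXNDC16 for F2RL1 (0.09), VPS51 for PRSS8 (0.08) and RPL18 for PRSS3 (0.08). PRSS1 was nearest to PCK2 (0.40) and PRSS2 to TXNIP (0.37), on a scale on which differences grow with a gene's own changes. PCK2 had a mean of 336 normalized reads under PBS, 3676 under FWctl, 356 under FWatb and 318 under ATB.

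Total counts ranged from 7118302 to 18726967 per library. Of 10 intestinal epithelial markers, 7 had over 100 normalized reads in every library, among them EPCAM, CDH1, VIL1, CDX2 and HNF4A, while KRT20, LGALS4 and CDX1 were low, the last with at most 4 reads. Of 10 markers of pancreatic acinar cells, 7 had fewer than 10 reads in every library, and CPB1, PNLIP and AMY2A had 0. Within this list CEL and AMY2B had means of 29.1 and 11.1 normalized reads under FWctl against 16.1 and 3.74 under PBS, and their part in the trypsin values was not tested. Of 9 markers of leukocytes, fibroblasts and endothelium, 4 had fewer than 10 reads in every library, with PTPRC at 2 at most, and the sum of the list was at most 141 under FWctl against 236 to 346 in the other groups. The share of counts on ribosomal DNA was 0.0163 to 0.0805% in 8 libraries (PBS 2, FWctl 3 with replicate 1, ATB 3) and 1.87 to 8.19% in 14, which hold all FWatb libraries. The part of the library set in the FWatb comparisons can only be seen within the 14, where FWatb against FWctl gave a log2 fold change of -4.33 for PRSS1, -3.71 for PRSS2 and 1.12 for PRSS23. In these libraries, fewer cells that express a gene and less RNA of it per cell cannot be told apart.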

How the data were processed

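RNA of 22 Caco-2 samples was sequenced as a stranded total RNA library after ribosomal RNA depletion, with paired reads of 150 bases. The authors trimmed reads with Trimmomatic 0.38, aligned them to GRCh38 with HISAT2 2.1.0 and assigned them to Ensembl genes with featureCounts (Subread 2.0.0). The deposited values are the authors' raw counts, neither normalized nor filtered. The strand setting and the treatment of reads with several positions are not given in the sources used here. Symbols, coordinates and exon lengths came from GENCODE release 44, where 61369 of 61487 identifiers were found. Promoters are those of RefSeq (GRCh38.p14).

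FWctl replicate 1 entered no mean or test, and libraries were split at a share of 0.5% of counts on the ribosomal DNA repeats of chromosome 21. The labels gave each sample's group and replicate number. Levels are counts normalized by edgeR's TMM factors to the median library of 21 samples. Differences were tested with edgeR 4.0.16 (R 4.3.3), quasi-likelihood test, with 4 groups fitted together for the 20373 genes having more than 5 counts in 3 or more samples, with Benjamini-Hochberg adjustment over all of them and a threshold of 0.05. Between FWatb and FWctl the log2 fold change also had to exceed 1 in size, as in the study's methods. The standard error is the log2 fold change divided by the root of the F statistic. For the trypsin sum, the 3 genes entered as 1 feature. DESeq2 1.42.0 and the other alternatives are listed with the limits at the end. The study describes the FW samples of these conditions as biological replicates. For PBS and ATB no label says that replicates came from separate cultures, so p-values measure only the spread between these samples, which may be technical there. The 54 replicate pairs had a chi-square per degree of freedom from 3.58 to 118, above sampling noise, so none was counted as a duplicate.

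Per the study's methods FWctl and FWatb came from the same mice, and a shared number was taken as the same mouse. Deviations of same-numbered samples from their group means correlated at -0.002 to 0.099 over 6 pairs (mean 0.039, against -0.007 for different numbers).

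The members and lists were chosen with earlier results of these data known. Of the lists, 15 genes written in the naming rule are named always, and per comparison and direction up to 4 called genes with the largest absolute log2 fold change and a mean of at least 20 normalized counts. Genes that overlap exons of a member are named with the overlap. On the other strand UBE2R2-AS1 shares 72 exon bases with PRSS3, SPINT1-AS1 100 with SPINT1 and ENSG00000261385 357 with PRSS8. ENSG00000289924, absent from the counts, shares 304 with F2RL1. FWctl against PBS gave a log2 fold change of -0.32 for UBE2R2-AS1 (adjusted p = 0.312, edgeR) and -0.66 for SPINT1-AS1 (adjusted p = 0.0155, edgeR). ENSG00000261385 had a mean of 0 reads in every group. Their part in the member counts was not tested. The summed level of the acinar marker list is not reported here.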

Additional observations from a re-analysis of the deposited data

Results flagged for a closer look

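FWctl replicate 1 stood apart from the other 6 FWctl samples in 3 of the 10 genes, by the gap to its nearest neighbour over the whole range of the 7 samples. It was the lowest for PRSS1, with a normalized read count of 137 from 185 reads, against 524 for the next sample, a gap of 0.71 of the range. It was the highest for TMPRSS2, at 476 from 641 reads, against 361 for the next, a gap of 0.66 of the range. It was also the highest for TMPRSS4, at 2089 from 2812 reads, against 1313, a gap of 0.82 of the range. They were the only such samples among 55 groups of 4 to 7 samples examined. Chance alone sets a sample apart in about 1 in 20 groups, here 2.75, near the 3 found. The groups share libraries and so are not independent. This library had been set apart beforehand and left out of every mean and test, so the values describe that choice and are no independent evidence for it. The cause was not tested.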

How the results depend on the processing

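Of 1220 log2 fold changes of the 10 genes recomputed under the alternatives, 1179 kept their direction and their side of the threshold, which between FWatb and FWctl includes the fold change. At the adjusted p alone, 4 of the 310 values of that comparison crossed 0.05, for PRSS8 with all 22 samples (0.0538) and with library size alone (0.0885), and for SPINT1 with the library set as a covariate (0.0626) and without FWctl replicate 2 (0.0598). The alternatives were all 22 samples, DESeq2, edgeR with the size factors of DESeq2 or with library size alone, no filter or edgeR's own filter on low counts, only the groups compared, the library set as a covariate, only the high-rDNA or, chosen after seeing the data, only the low-rDNA libraries, the replicate number as a block, and each of 21 samples left out. The replicate block, fitted in the FW groups alone, gave a log2 fold change of FWatb against FWctl of -4.18 for PRSS1, -3.69 for PRSS2 and 1.09 for PRSS23, and changed no call. The differences below did not pass the threshold and changed sign, and the cause was not tested. Over low-rDNA libraries ATB against PBS gave -0.022 for PRSS1, -0.13 for SPINT1, -0.054 for ST14 and -0.028 for TMPRSS4, and FWctl against PBS gave -0.026 for PRSS8, which was -0.0083 with all 22 samples. Library size alone gave 0.063 for PRSS3 in FWatb against PBS, -0.0056 for TMPRSS4 in ATB against PBS and 0.038 for the trypsin sum in FWatb against PBS. High-rDNA libraries gave 0.11 for PRSS3 and 0.085 for the trypsin sum in FWatb against PBS. With single samples left out, ATB against PBS ran from -0.092 to 0.31 for PRSS1, -0.19 to 0.014 for PRSS3, -0.057 to 0.10 for SPINT1, -0.010 to 0.054 for ST14, -0.023 to 0.035 for TMPRSS4 and -0.16 to 0.035 for the trypsin sum. FWatb against PBS ran from -0.15 to 0.064 for PRSS3, -0.029 to 0.087 for TMPRSS2 and -0.17 to 0.035 for the trypsin sum, and FWctl against PBS from -0.046 to 0.10 for PRSS8. The count of the 10 genes past the threshold between FWatb and PBS was 0 with all 22 samples, within the high-rDNA libraries and with the library set as a covariate, 2 with only the groups compared, and 0 to 2 with single samples left out. Between FWatb and FWctl it was 10 without the fold change threshold. Of the list genes, between FWatb and PBS 9 passed with all 22 samples, 2 within the high-rDNA libraries and 8 to 16 with single samples left out, the 8 without PBS replicate 3. Between ATB and PBS 1 passed with DESeq2, 1 without a filter and 0 to 1 with single samples left out, and between FWatb and FWctl 35 passed without the fold change threshold. Scaling by library size alone moved 16 of the group levels by more than 1 SD, among them PRSS1 under FWctl (542). Counts of 3 to 90 reads limit PRSS1 and PRSS2 outside FWctl.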
